A study of Homo sapiens with 4 samples.

Results

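The region on 17q21 that runs from upstream of CDK5RAP3 past NFE2L1 was described from SMC1 ChIA-PET of Kelly cells, an established neuroblastoma line. It was taken as every pair of anchors with at least 1 anchor midpoint at 45850000-46500000 on chromosome 17 (hg19). An anchor is a stretch of DNA at which ligated ends pile up, and a paired-end tag (PET) is a read pair that joins 2 anchors. The region held 40 of 39507 anchors. It held 1562 of 378290 pairs with a PET in the shBORIS table, against 1329 of 374437 pairs in the shLUC table. The region was chosen on the difference between these tables, because the anchor at 46067619-46075229 had more intrachromosomal and more interchromosomal PETs in shBORIS. That anchor is called the selected anchor here. Its values, and every other difference between shBORIS and shLUC in the region, are therefore given as a description with no test. At the edges of the window, the lowest anchor inside had 18 intrachromosomal PETs in shBORIS and 10 in shLUC, and the anchor just below the window had 21 in shBORIS and 15 in shLUC. The highest anchor inside had 7 in shBORIS and 6 in shLUC, and the one just above had 6 in shBORIS and 8 in shLUC.

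Cells of both groups were resistant to the ALK inhibitor TAE684 and were kept in 1 µM of it. They were infected for 24 h with virus carrying either the hairpin construct shBORIS or the control construct shLUC, with 8 µg/ml polybrene, and selected in puromycin for 48 h. Each group had 2 libraries, numbered 1 and 2 in the labels, which do not say whether the numbers stand for cultures or for different hairpins. The deposited data are 1 table per group, which both libraries of the group name. No value here has a replicate error, and the spread between libraries cannot be seen. The level of BORIS was not analysed here.

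SMC1 is a core subunit of cohesin, the ring complex that extrudes chromatin loops until it is halted, most often at sites bound by CTCF. BORIS, also named CTCFL, is a paralog of CTCF with closely similar zinc fingers, normally restricted to the male germ line and expressed again in some tumours. ChIA-PET of SMC1 thus reports where cohesin-bound DNA fragments were close enough to be ligated. In libraries made from many cells, a contact present in more cells and a contact made more often per cell cannot be told apart.

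The 3 genes that name the region serve protein quality control and membrane traffic. CDK5RAP3 encodes an adaptor of the enzyme complex that attaches the ubiquitin-like protein UFM1 to its targets at the endoplasmic reticulum. COPZ2 encodes a zeta subunit of the COPI coat, which shapes transport vesicles of the Golgi, and its locus hosts the microRNA gene MIR152. NFE2L1 encodes a transcription factor held in the endoplasmic reticulum membrane that activates genes of proteasome subunits. In hg19 CDK5RAP3 lies at 46045176-46059152, COPZ2 begins at 46103533 and NFE2L1 at 46125721, counted along the chromosome. These positions came with the definition of the region and were not checked against an annotation of that build. By order in GRCh38.p14, the genes that precede CDK5RAP3 include OSBPL7, MRPL10, LRRC46, SCRN2, SP6, SP2 and PRR15L. MIR152 lies inside COPZ2, and CBX1, SNX11, SKAP1 and HOXB1 follow NFE2L1. No protein-coding gene and 1 gene of another type lie between CDK5RAP3 and COPZ2 in that annotation. COPZ2 runs on the minus strand there, and 305 bases separate the upper limit of its locus from the first base of NFE2L1, which runs on the plus strand. The COPZ2 promoter listed by RefSeq lies further inside the locus. The genes are thus divergent, and the lower end of COPZ2 is its 3′ end.

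Promoter sequences of the 3 genes are shown because the region is named for these genes and the first base of NFE2L1 falls in an anchor. They are RefSeq sequences of GRCh38.p14, each from 250 bases before a transcript start to 50 after it, read 5′ to 3′ on the gene's strand. Of the 5 promoters listed for these genes, 1 is shown per gene. Capitals mark CCAAT, or ATTGG on the other strand, in CDK5RAP3 and NFE2L1, and GGGCGG in COPZ2, which holds no CCAAT.
CDK5RAP3, chr17:47970863-47971162, plus strand: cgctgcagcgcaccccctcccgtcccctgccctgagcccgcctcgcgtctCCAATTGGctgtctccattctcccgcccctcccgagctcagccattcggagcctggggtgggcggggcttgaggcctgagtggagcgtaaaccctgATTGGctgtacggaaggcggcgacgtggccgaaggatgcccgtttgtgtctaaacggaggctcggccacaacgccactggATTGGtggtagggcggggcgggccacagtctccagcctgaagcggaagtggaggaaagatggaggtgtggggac
COPZ2, chr17:48037748-48038047, minus strand: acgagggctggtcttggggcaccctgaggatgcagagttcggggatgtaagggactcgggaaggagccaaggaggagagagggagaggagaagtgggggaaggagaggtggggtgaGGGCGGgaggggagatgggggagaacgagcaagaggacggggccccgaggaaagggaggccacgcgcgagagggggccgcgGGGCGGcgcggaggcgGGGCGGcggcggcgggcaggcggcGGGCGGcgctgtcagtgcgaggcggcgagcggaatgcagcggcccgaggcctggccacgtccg
NFE2L1, chr17:48048109-48048408, plus strand: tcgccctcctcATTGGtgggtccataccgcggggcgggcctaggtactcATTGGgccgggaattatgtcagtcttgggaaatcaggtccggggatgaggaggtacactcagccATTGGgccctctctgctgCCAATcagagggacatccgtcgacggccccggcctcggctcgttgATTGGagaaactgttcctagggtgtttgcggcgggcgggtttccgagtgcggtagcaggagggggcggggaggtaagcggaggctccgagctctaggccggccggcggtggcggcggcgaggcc

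CCAAT is the site of the trimeric factor NF-Y. It occurred 4 times in the CDK5RAP3 promoter shown and 5 times in that of NFE2L1, on both strands together, and 0 times in the other promoter listed for each of these genes and in that of COPZ2. In CDK5RAP3 a forward and a reverse match overlap by 2 bases. Of 35116 promoters in the same table, 34.6% held at least 1 such match and 3.26% at least 3. The GC box GGGCGG, bound by SP-family factors, occurred 4 times in the COPZ2 promoter shown, 4 times in that of CDK5RAP3 and 3 times in that of NFE2L1, and it is in capitals for COPZ2 alone. It occurred 0 times in the other CDK5RAP3 promoter and 2 times in the other NFE2L1 promoter, and 45.0% of all promoters held it on either strand. GC content was 66.3% for the CDK5RAP3 promoter shown, 73.3% for that of COPZ2 and 65.7% for that of NFE2L1, and 49% and 71.3% for the other promoters of CDK5RAP3 and NFE2L1, against a median of 58.7% over all promoters. The core of the CTCF motif, searched on both strands, was found in 0 of the 5 promoters and in 0.470% of all promoters. The CCAAT and GGGCGG searches were chosen after these sequences had been read. A match in letters describes a sequence and does not show a bound factor, and no genome of the files' build was at hand to read the anchors' own sequence.

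The shBORIS table held 449979 PETs, of which 163041, or 36.2%, joined anchors of 1 chromosome, and the shLUC table held 434975, of which 146140, or 33.6%, did. To compare tables, each intrachromosomal count was divided by all intrachromosomal PETs of its table, and each interchromosomal count by all interchromosomal ones. The scaled ratio is shBORIS over shLUC. Intervals in parentheses after ratios and shares are exact 95% intervals. They cover counting error only, as the labels name no molecular identifiers for the PCR step and some PETs may be copies of 1 ligation product.

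The region as a whole had 792 intrachromosomal PETs in shBORIS and 563 in shLUC, and the scaled ratio was 1.26 (1.13 to 1.41). Its interchromosomal PETs numbered 1315 in shBORIS and 1111 in shLUC, with a ratio of 1.19 (1.10 to 1.29). The whole of chromosome 17 had an intrachromosomal ratio of 1.06 and an interchromosomal one of 1.04. PETs with both ends inside the window numbered 649 in shBORIS and 435 in shLUC, giving a ratio of 1.34 (1.18 to 1.51). PETs that left the window numbered 143 in shBORIS and 128 in shLUC, giving a ratio of 1.00 (0.783 to 1.28). Without every pair of the selected anchor, 563 intrachromosomal PETs remained in shBORIS and 442 in shLUC, giving a ratio of 1.14 (1.01 to 1.30). Summed over the 40 anchors, so that a PET inside the window counts at both its ends, the intrachromosomal ratio was 1.29. On a fixed grid of windows of 650 kb, 16 of 284 with at least 500 such PETs had that ratio or a higher one. The interchromosomal ratio of 1.19 was reached by 14 of the 284.

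**Figure D1:**
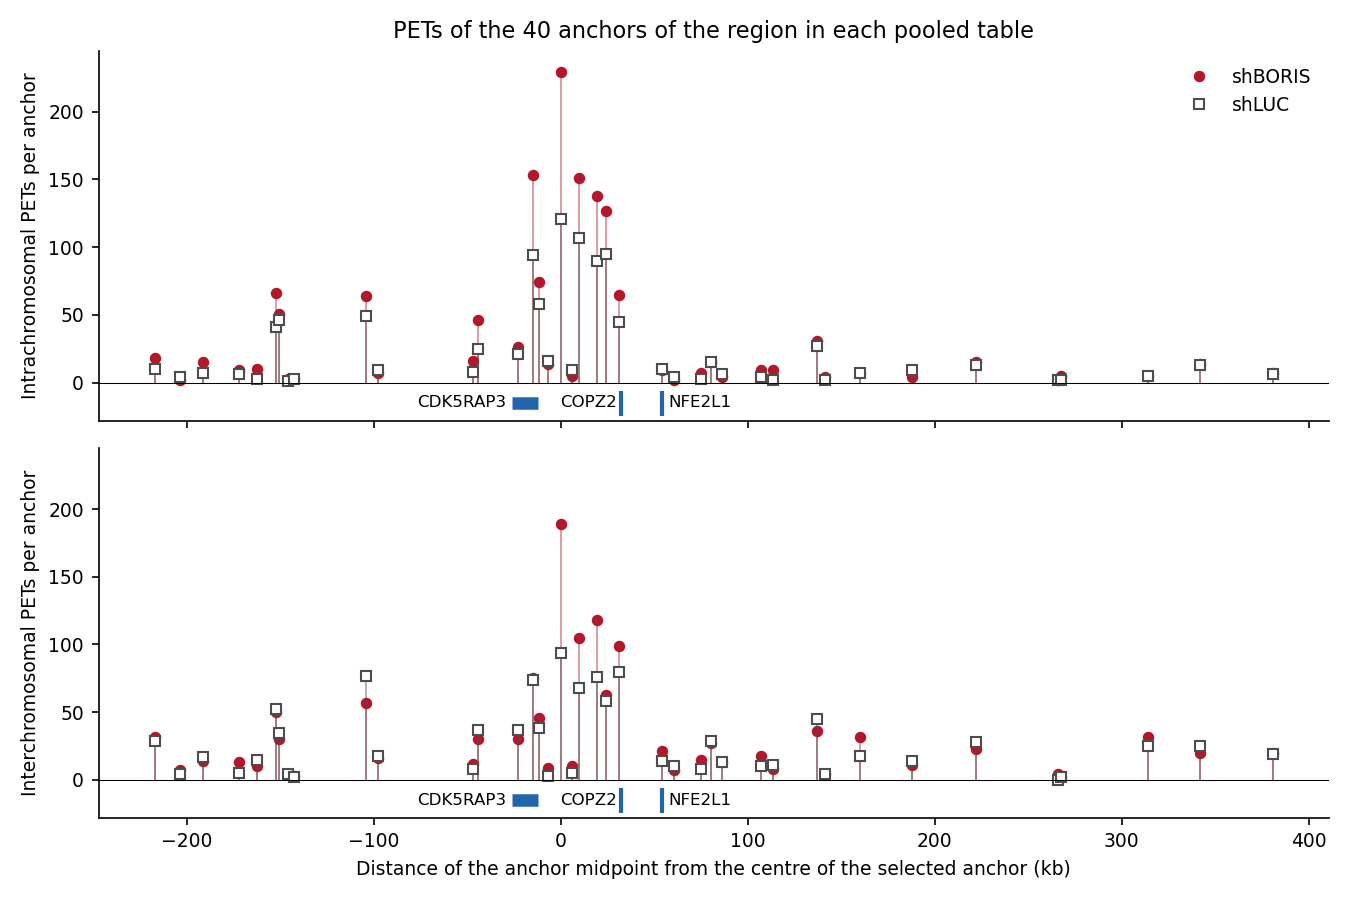
PETs of each of the 40 anchors against distance from the centre of the selected anchor, with shBORIS as filled circles and shLUC as open squares, intrachromosomal above and interchromosomal below. The bar marks CDK5RAP3, and the ticks mark only the lower end of COPZ2 and of NFE2L1. The tallest points in both panels belong to the selected anchor, with 229 intrachromosomal PETs in shBORIS and 121 in shLUC, and 189 interchromosomal PETs in shBORIS and 94 in shLUC.

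The selected anchor lies 8.47 kb past the end of CDK5RAP3 and 28.3 kb short of COPZ2. It is 7.61 kb wide, 30th by width of all anchors, whose median was 1172 bp. It had 229 intrachromosomal PETs in shBORIS and 121 in shLUC, giving a scaled ratio of 1.70 (1.36 to 2.13). Its rank by this count was 2 of 39507 anchors in shBORIS and 12 in shLUC, so that it was among the busiest anchors of both tables. Its interchromosomal PETs numbered 189 in shBORIS and 94 in shLUC, giving a ratio of 2.02 (1.57 to 2.62), with ranks of 7 in shBORIS and 84 in shLUC. Per kilobase of anchor it had 54.9 PETs of either kind in shBORIS and 28.2 in shLUC, beside medians of 43.7 in shBORIS and 40.2 in shLUC over the anchors with 100 or more PETs in that table. The intrachromosomal share of its PETs was 54.8% in shBORIS and 56.3% in shLUC, where those anchors had medians of 47.4% in shBORIS and 44.5% in shLUC. The ratio of its intrachromosomal to its interchromosomal ratio was 0.838. Both kinds of PET were thus higher in shBORIS by similar factors, and the part that the higher interchromosomal recovery of this anchor has in its intrachromosomal count was not tested.

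The interchromosomal PETs of the selected anchor were scattered. In shBORIS its 189 PETs went to 189 partner anchors on 22 chromosomes, and no partner had more than 1. In shLUC 94 PETs went to 93 partners on 21 chromosomes, and 1 partner had 2. Only 1 partner anchor was seen in both tables. Interchromosomal pairs of chromosome 17 as a whole were alike: 44181 PETs fell on 43939 pairs in shBORIS and 42943 on 42739 in shLUC. The pairs with a PET in either table numbered 86596, so few were seen in both. The scatter was thus not particular to the selected anchor. Chromosome 1 received the most, 32 PETs in shBORIS and 15 in shLUC, or 16.9% in shBORIS and 16.0% in shLUC, where it held 12.8% in shBORIS and 12.7% in shLUC of all interchromosomal ends off chromosome 17. No partner on another chromosome had more than 2 PETs in a table.

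Within chromosome 17 the contacts of the selected anchor were short and few in kind. It had 30 partners in shBORIS and 15 in shLUC, and the 3 partners with the most PETs took 68.6% in shBORIS and 70.2% in shLUC of its intrachromosomal PETs. PETs under 20 kb made up 82.5% (77.0 to 87.2) of its contacts in shBORIS and 84.3% (76.6 to 90.3) in shLUC. Over the whole of chromosome 17 that share was 22.9% in shBORIS and 21.5% in shLUC. Its neighbour 46079167-46083101 had 151 intrachromosomal PETs in shBORIS and 107 in shLUC. Of these, 79 in shBORIS and 47 in shLUC went to the selected anchor, across 9.71 kb. Another 22 in shBORIS and 20 in shLUC went to 46086704-46094392, across 9.41 kb. Mostly short contacts were thus not particular to the selected anchor. To all higher coordinates the selected anchor sent 144 PETs in shBORIS and 81 in shLUC. Of these, 132 in shBORIS and 75 in shLUC went to the 5 anchors from there to the lower end of COPZ2. To all lower coordinates, towards CDK5RAP3 and beyond, it sent 85 in shBORIS and 40 in shLUC.

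The contact with the most PETs joined it to 46079167-46083101, 9.71 kb away in the stretch between CDK5RAP3 and COPZ2, with 79 PETs in shBORIS and 47 in shLUC. By PETs summed over the tables this pair ranked 1 on chromosome 17 and 3 among all intrachromosomal pairs. Its scaled ratio was 1.51 (1.04 to 2.21). Contact with 46058786-46060970, the anchor over the end of CDK5RAP3, had 40 PETs in shBORIS and 21 in shLUC, giving a ratio of 1.71 (0.983 to 3.05). Contact with 46086704-46094392, a similarly wide anchor 19.1 kb away, had 38 in shBORIS and 17 in shLUC, and the interval of its ratio was 1.10 to 3.79. All 3 pairs were higher in shBORIS, the direction on which the selected anchor was chosen.

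Contact with 46054835-46058479, inside CDK5RAP3, had 25 PETs in shBORIS and 11 in shLUC, giving a ratio of 2.04 (0.967 to 4.59). Contact with 46094537-46096731 had 12 in shBORIS and 9 in shLUC, and contact with the small anchor 46064176-46065295 had 6 in each table. The anchor at 46047529-46049281, in the first part of CDK5RAP3, and that at 46025993-46028019 each had 3 PETs with the selected anchor in shBORIS and 0 in shLUC, where a count of 0 allows up to 3. Without its largest pair the selected anchor had 150 PETs in shBORIS and 74 in shLUC, giving a ratio of 1.82. The higher count in shBORIS was thus spread over several partners.

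**Figure D2:**
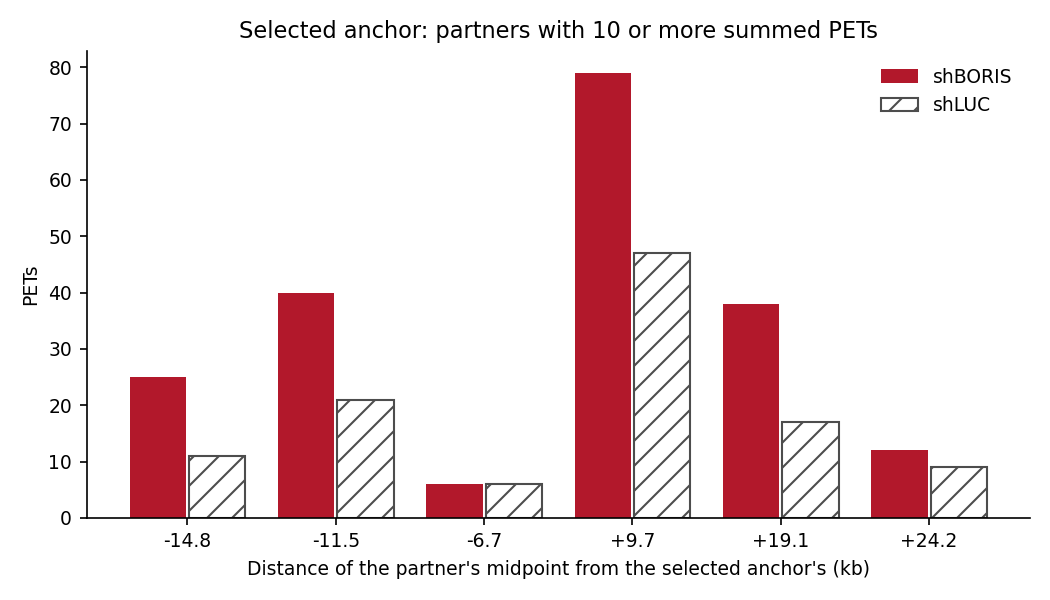
PETs of the selected anchor with each of its 6 intrachromosomal partners that had at least 10 summed PETs, by distance, for shBORIS as filled bars and shLUC as hatched bars. The partner at +9.71 kb had 79 PETs in shBORIS and 47 in shLUC, and the partner at -6.69 kb had 6 in each table.

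The stretch from CDK5RAP3 to the lower end of COPZ2 held 10 anchors, called the central anchors here. PETs with both ends among these anchors numbered 411 in shBORIS and 273 in shLUC, or 51.9% in shBORIS and 48.5% in shLUC of all intrachromosomal PETs of the region. Of these, pairs of the selected anchor made 206 in shBORIS and 113 in shLUC, with a ratio of 1.63 (1.29 to 2.07). Pairs among the other 9 anchors made 205 in shBORIS and 160 in shLUC, with a ratio of 1.15 (0.929 to 1.42). Set against all pairs of chromosome 17 anchors at the same distances, the central anchors had 9.93 times the expected PETs in shBORIS and 8.32 times in shLUC. With the expected count also weighted by the interchromosomal PETs of both anchors, a choice made after seeing the data, the ratio of observed to expected PETs was 1.19 in shBORIS and 1.01 in shLUC. Contacts among the central anchors were therefore dense for their distances, and nearer to the expected count with this weighting. Between parts of the stretch the weighted ratio ran from 0.642 to 1.76 in shBORIS and from 0.758 to 1.24 in shLUC. The part that anchor abundance has in the density was not tested.

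Outside the selected anchor, the contact of central anchors with the most PETs joined 46054835-46058479 inside CDK5RAP3 to 46094537-46096731 across 39.0 kb, with 45 PETs in shBORIS and 32 in shLUC. Its ratio was 1.26 (0.784 to 2.05), and it ranked 21 among all intrachromosomal pairs. The same CDK5RAP3 anchor contacted 46086704-46094392 with 24 PETs in shBORIS and 15 in shLUC, and 46079167-46083101 with 17 in shBORIS and 7 in shLUC. Contact between 46086704-46094392 and its neighbour 46094537-46096731 had 28 PETs in shBORIS and 19 in shLUC, giving a ratio of 1.32 (0.712 to 2.50). Contact between 46079167-46083101 and 46086704-46094392 had 22 in shBORIS and 20 in shLUC, giving a ratio of 0.986 (0.513 to 1.90). Contact between 46058786-46060970 and 46079167-46083101 had 8 in shBORIS and 12 in shLUC, so not every pair of central anchors was higher in shBORIS.

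**Figure D3:**
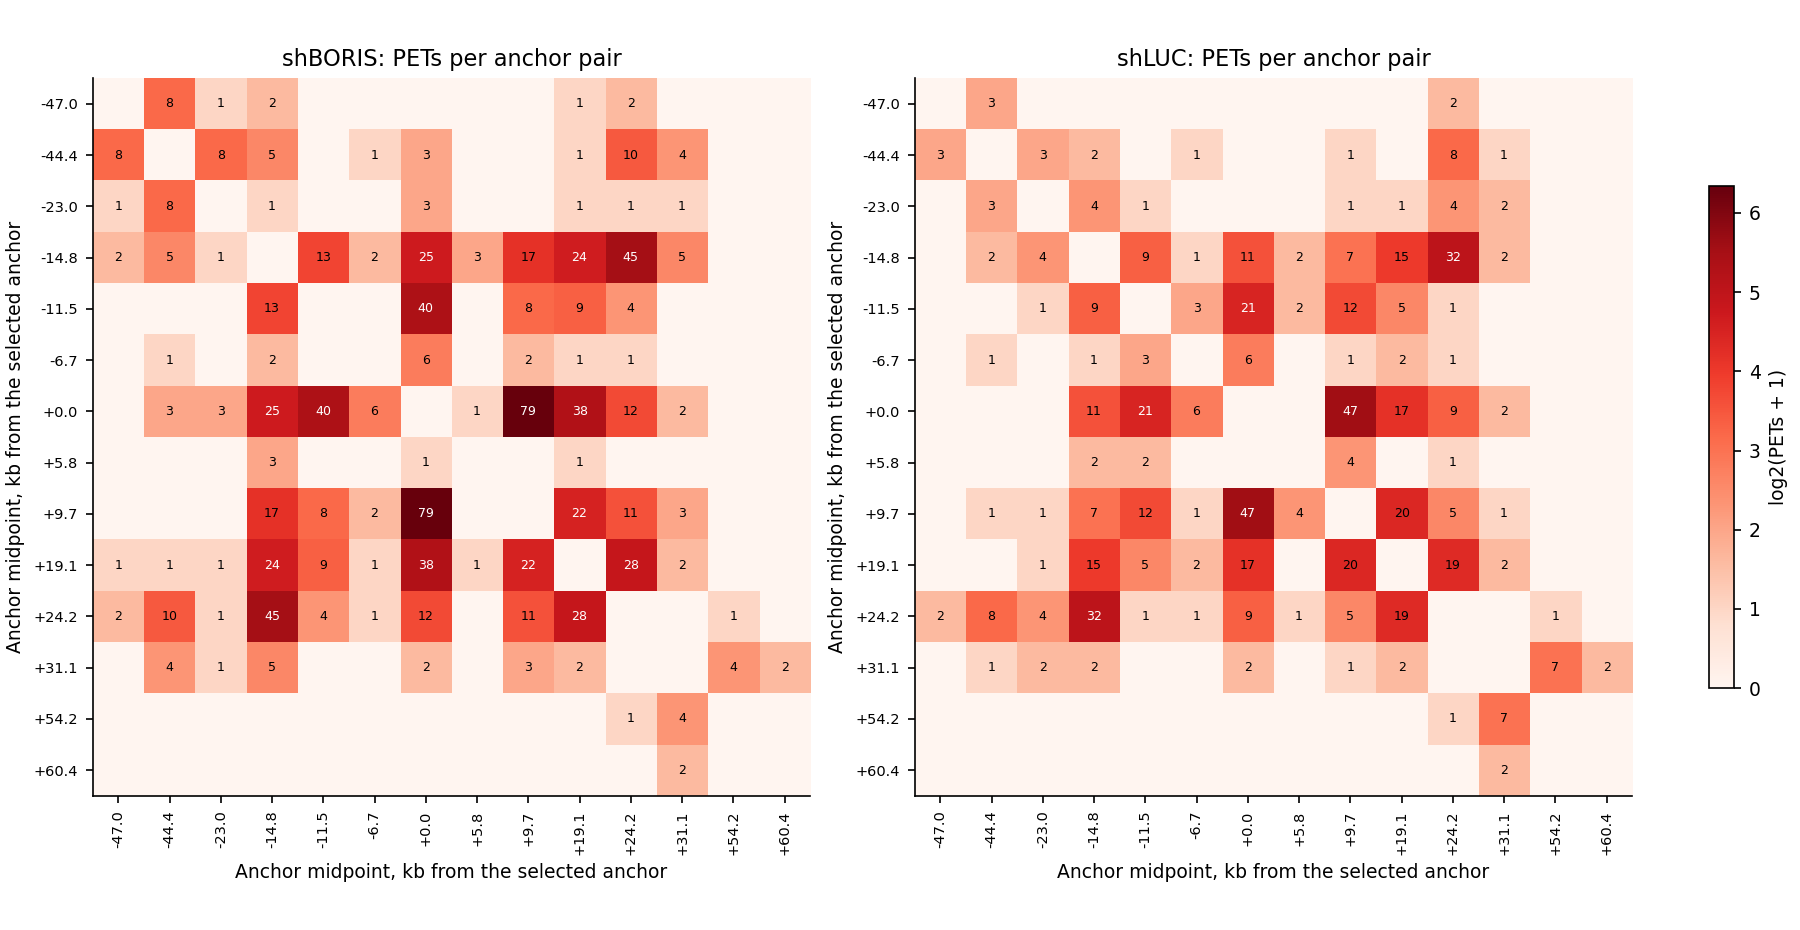
PETs of each pair of the 14 anchors between -47.0 and +60.4 kb from the centre of the selected anchor, in shBORIS at left and shLUC at right, coloured by log2(PETs + 1) with the count written in each cell that is not 0. The filled cells lie mostly between -14.8 and +24.2 kb, and the anchor at +31.1 kb, over the lower end of COPZ2, had at most 5 PETs with any other central anchor in shBORIS and at most 2 in shLUC.

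Contacts dropped sharply just before COPZ2. In the gap between 46094392 and 46094537, 146 PETs spanning under 500 kb crossed in shBORIS and 104 in shLUC. In the next gap, between 46096731 and 46100179, the crossing PETs numbered 26 in shBORIS and 19 in shLUC, near the chromosome 17 medians of 20 in shBORIS and 17 in shLUC over 2405 gaps. Just past the selected anchor, 290 PETs crossed in shBORIS and 190 in shLUC, at percentiles 99.6 in shBORIS and 99.4 in shLUC of the gaps of the chromosome. A lower peak, of 78 in shBORIS and 51 in shLUC, lay far upstream in the gap before 45966111. Both tables showed these peaks and the drop before COPZ2.

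**Figure D4:**
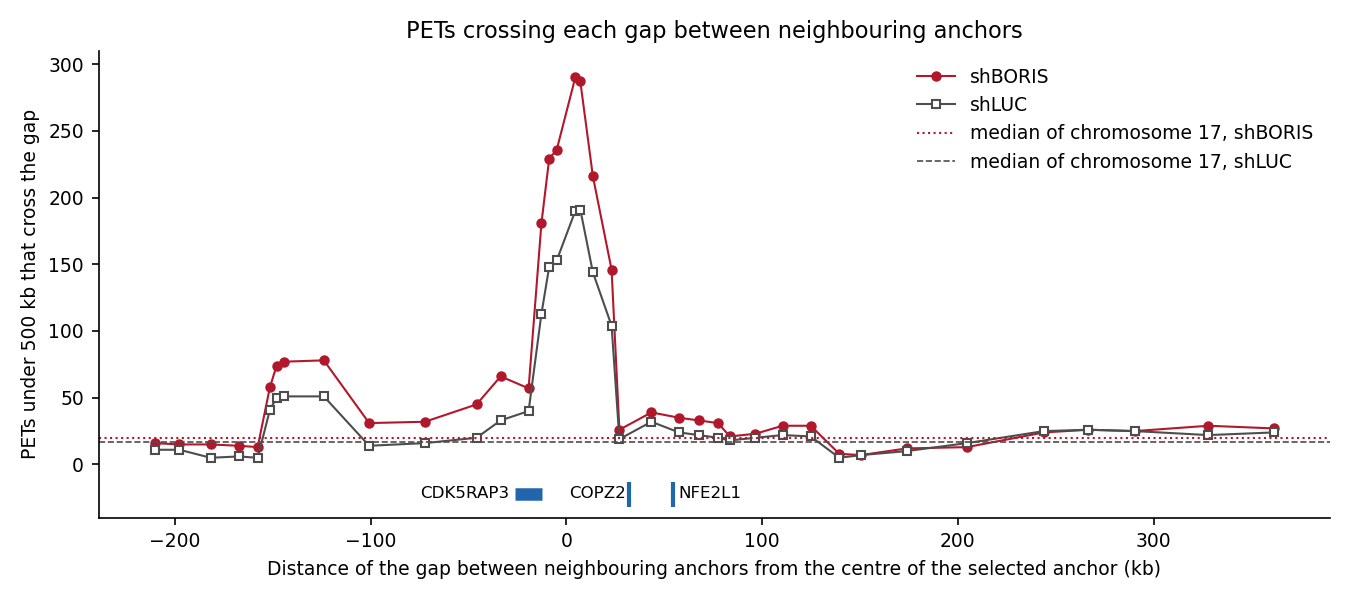
PETs spanning under 500 kb that cross each gap between neighbouring anchors, against distance from the selected anchor, for shBORIS as filled circles and shLUC as open squares, with the chromosome 17 medians as horizontal lines. The count drops to 26 in shBORIS and 19 in shLUC just before the tick that marks the lower end of COPZ2.

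The anchors over the lower end of COPZ2 and over the first base of NFE2L1 had few contacts with the CDK5RAP3 side. The anchor at 46100179-46104950, which covers the lower end of COPZ2 and is the last of the central anchors, had 65 intrachromosomal PETs in shBORIS and 45 in shLUC, giving a ratio of 1.29 (0.872 to 1.94). Its interchromosomal PETs numbered 99 in shBORIS and 80 in shLUC, giving a ratio of 1.25 (0.918 to 1.69). With the other 9 central anchors it had 13 PETs in shBORIS and 9 in shLUC, and with the 17 anchors beyond it in the window it had 33 in shBORIS and 24 in shLUC. The partner with the most PETs was 46206911-46209424, 106 kb further along, with 11 in shBORIS and 9 in shLUC, followed by 46151114-46152557 with 8 in shBORIS and 5 in shLUC. In both tables this anchor therefore had more PETs with the 17 anchors beyond it than with the other 9 central anchors. The count for the 9 leaves out its PETs with anchors upstream of CDK5RAP3.

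The anchor over the first base of NFE2L1, at 46124663-46126621, had 9 intrachromosomal PETs in shBORIS and 10 in shLUC, giving a ratio of 0.807 (0.290 to 2.21). Its interchromosomal PETs numbered 21 in shBORIS and 14 in shLUC, giving a ratio of 1.51 (0.732 to 3.21). Its contact with the COPZ2 anchor had 4 PETs in shBORIS and 7 in shLUC and was the only one of its contacts called, in both tables. At these counts no difference between shBORIS and shLUC was detectable at NFE2L1.

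The selected anchor had 0 PETs in either table with the NFE2L1 anchor and with the 16 anchors beyond it in the window. Distance alone predicted 4.63 PETs in shBORIS and 4.04 in shLUC over these 17 anchors. The floor of 3 counts allows a share of up to 1.31% of its intrachromosomal PETs in shBORIS and 2.48% in shLUC. From the 9 central anchors other than that over COPZ2, 2 PETs in shBORIS and 4 in shLUC reached the 17 anchors, whereas 398 in shBORIS and 264 in shLUC stayed among the 9. The higher counts of the selected anchor in shBORIS thus came with no detected contact to the NFE2L1 start. At that anchor alone, distance predicted only 0.620 PETs in shBORIS and 0.574 in shLUC. A count of 0 there therefore cannot show that contact was absent.

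At CDK5RAP3 the anchors differed in level. The one inside the gene at 46054835-46058479 had 153 intrachromosomal PETs in shBORIS and 94 in shLUC, giving a ratio of 1.46 (1.12 to 1.91), and its interchromosomal PETs numbered 75 in shBORIS and 74 in shLUC. That over the end of the gene, at 46058786-46060970, had 74 in shBORIS and 58 in shLUC, giving a ratio of 1.14 (0.800 to 1.64). That nearest to the gene's first base, 2.35 to 4.11 kb inside it, had 26 in shBORIS and 21 in shLUC, giving a ratio of 1.11 (0.600 to 2.07). Whether the promoter printed for CDK5RAP3 falls in it was not determined, since the builds differ. The anchor nearest to the first base had 2 calls in shBORIS and 4 in shLUC. It was called with 46025993-46028019 in both tables, with 8 PETs in shBORIS and 3 in shLUC. Its calls in shLUC alone were with 46054835-46058479 and 46094537-46096731, at 1 PET in shBORIS and 4 in shLUC each, and with 45972818-45974291, at 2 in shBORIS and 3 in shLUC. The call in shBORIS alone was with the selected anchor, at 3 PETs in shBORIS and 0 in shLUC. Contacts of the gene were thus concentrated on its 3′ side in both tables.

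Across the region, 20 of the 40 anchors had at least 20 intrachromosomal PETs over both tables. Of these, 5 were past 1.5-fold higher in shBORIS and 0 past 1.5-fold lower. Over all 9302 anchors with that many PETs, 16.1% were past 1.5-fold higher and 13.7% lower. The median ratio was 1.23 in the region and 1.02 over all. Besides the selected anchor, the 5 were 45853205-45854931 with 18 PETs in shBORIS and 10 in shLUC, 45879294-45880512 with 15 in shBORIS and 7 in shLUC, 46023916-46024971 with 16 in shBORIS and 8 in shLUC, and 46025993-46028019 with 46 in shBORIS and 25 in shLUC. All 4 lie upstream of CDK5RAP3 and have intervals that include 1. The last had 30 interchromosomal PETs in shBORIS and 37 in shLUC, giving a ratio of 0.816, so that only its intrachromosomal count was higher in shBORIS.

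For interchromosomal PETs, 29 of the 40 anchors had at least 20, of which 8 were past 1.5-fold higher in shBORIS and 0 lower, where 13.2% of 22194 anchors were higher and 13.1% lower. The median ratio was 1.02 in the region and 1.01 over all. After the selected anchor, those with the most PETs were 46086704-46094392 with 118 in shBORIS and 76 in shLUC, giving a ratio of 1.56 (1.16 to 2.11), and 46079167-46083101 with 105 in shBORIS and 68 in shLUC, giving a ratio of 1.55 (1.13 to 2.14). Both lie between the selected anchor and COPZ2 and are wide, at 7.69 and 3.94 kb. The other 5 had ratios from 1.51 to 1.89, had 32 PETs or fewer in shBORIS, and included the NFE2L1 anchor. Anchors of 3 kb or more had a median interchromosomal ratio of 1.05 over the genome (770 anchors), and the 5 of the region had 2.02, 1.56, 1.55, 1.25 and 1.02.

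**Figure D5:**
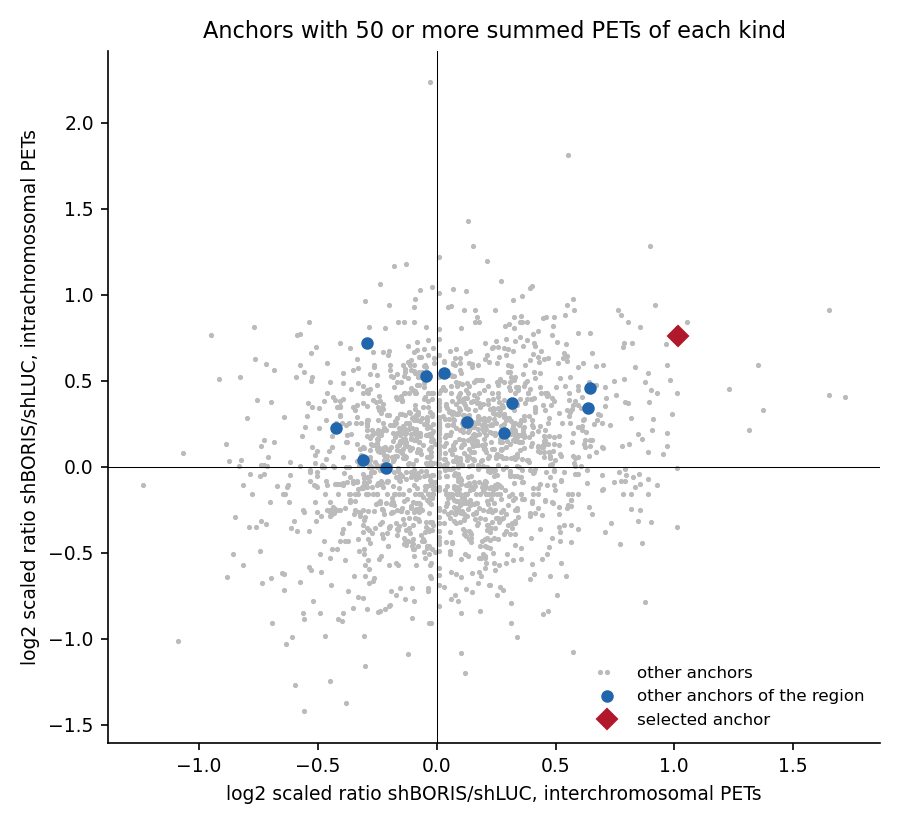
Scaled shBORIS over shLUC ratios of interchromosomal (horizontal) and intrachromosomal PETs (vertical), both as log2, for 1832 anchors with at least 50 summed PETs of each kind. The selected anchor stands at 1.02 and 0.76, and the other 11 anchors of the region all lie below it and to its left.

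Anchors past 1.5-fold higher in both kinds of PET numbered 22 of 1832 with at least 50 of each. Of the region's 12 such anchors only the selected one, chosen for being higher in both kinds, was among them. At a minimum of 20 of each, 46023916-46024971 also passed. It had 16 intrachromosomal PETs in shBORIS and 8 in shLUC, and 12 interchromosomal PETs in shBORIS and 8 in shLUC. The anchors nearest to the selected anchor in both log2 ratios, by Euclidean distance over 1831 others, came from 4 chromosomes. They were 43465467-43467147 of chromosome 10, 70677015-70680552 and 74582894-74584844 of chromosome 15, 43032516-43035948 of chromosome 17 and 168581903-168584454 of chromosome 1. The anchor at 70677015-70680552 had 86 intrachromosomal PETs in shBORIS and 47 in shLUC, and 93 interchromosomal PETs in shBORIS and 48 in shLUC. That on chromosome 17 had 50 intrachromosomal PETs in shBORIS and 25 in shLUC, and 66 interchromosomal PETs in shBORIS and 32 in shLUC. The selected anchor had more PETs of both kinds than each of the 5.

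Of the 391 intrachromosomal pairs of the region, 24 had at least 10 summed PETs, and 15 of these joined central anchors. All 24 were called in both tables. A call needs only 3 PETs, so pairs with this many are likely to be called, and the share over all such pairs is not given. Past 1.5-fold were 10 higher and 2 lower in shBORIS, beside 23.9% higher and 23.6% lower of 3951 such pairs in all. The median ratio was 1.38 in the region and 1.02 over all. The exact interval left out 1 for 2 of the 24, both of the selected anchor. That anchor was chosen for its higher counts in shBORIS and the intervals hold no replicate error, so this count is no test. The 2 lower pairs were 46058786-46060970 with 46079167-46083101, at 8 PETs in shBORIS and 12 in shLUC, and the COPZ2 anchor with the NFE2L1 anchor, at 4 in shBORIS and 7 in shLUC.

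Interactions were called where a pair had at least 3 PETs and the authors' Bayes probability was at least 0.9. The region had 43 in shBORIS and 34 in shLUC, of which 20 in shBORIS and 19 in shLUC joined central anchors. Over all intrachromosomal pairs, 13111 were called in shBORIS and 11236 in shLUC, so shBORIS had more calls there too. Of 51 called in either table, 26 were called in both, 17 in shBORIS alone and 8 in shLUC alone. Over all 18056 interactions called in either table, 34.8% were called in both, 37.8% in shBORIS alone and 27.4% in shLUC alone. The selected anchor had 8 calls in shBORIS and 6 in shLUC, and 151 of all anchors in shBORIS and 251 in shLUC had at least as many. Its rank by PETs was thus higher than its rank by called partners in both tables.

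Upstream of the genes, a smaller group of contacts joined 45917771-45919843 and 45919913-45921590 to 45966111-45968361, 48.4 and 46.5 kb away. The first had 26 PETs in shBORIS and 15 in shLUC, giving a ratio of 1.55 (0.793 to 3.16), and the second had 21 in shBORIS and 20 in shLUC, giving a ratio of 0.941 (0.485 to 1.83). The 13 anchors below CDK5RAP3 together had 310 intrachromosomal anchor ends in shBORIS and 212 in shLUC, giving a ratio of 1.31. The 104 PETs in shBORIS and 75 in shLUC that joined these anchors to each other count at both ends, so no interval is given. Interchromosomal PETs of the 13 anchors numbered 278 in shBORIS and 303 in shLUC, giving a ratio of 0.924 (0.782 to 1.09). Between these anchors and the central ones, 62 PETs were seen in shBORIS and 30 in shLUC, which was 1.75 times the count expected from distance in shBORIS and 0.971 times in shLUC. With the weighted expected count it was 0.501 times in shBORIS and 0.278 times in shLUC, so whether these contacts exceeded the expected count in shBORIS depended on the weighting.

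Past the NFE2L1 start, 16 anchors had 140 intrachromosomal anchor ends in shBORIS and 120 in shLUC, giving a ratio of 1.05. The 31 PETs in shBORIS and 26 in shLUC that joined these anchors to each other count at both ends, so no interval is given. Interchromosomal PETs of the 16 anchors numbered 272 in shBORIS and 261 in shLUC, giving a ratio of 1.05 (0.882 to 1.25). Contacts among the 16 anchors were at 0.565 times the count expected from distance in shBORIS and 0.561 times in shLUC. Against the weighted count they were at 0.986 times in shBORIS and 0.975 times in shLUC. Of the contacts that left the window, 102 PETs in shBORIS and 80 in shLUC went to higher coordinates and 41 in shBORIS and 48 in shLUC to lower ones. The longest called interaction of the region, from 46292494-46294016 to 46670687-46672015 across 378 kb, had 3 PETs in shBORIS and 2 in shLUC and was called in shBORIS alone.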

How the data were processed

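Libraries were made by immunoprecipitation, proximity ligation, tagmentation and PCR, per the labels' protocols. The submitters' processing notes name the build hg19, cutadapt 1.8 and Bowtie, with no role for each. Which program set and scored anchors is not given in the sources used here. A pair's PET count is deposited as an unnormalized whole number. The authors' hypergeometric p-value was not used. The deposited Bayes probability is a fraction from 0 to 1. The shBORIS table has no header line and was read in the shLUC column order. Pairs without a PET are not listed, and starts were shifted to count from 1.

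With 1 table per group, taken as the pool of its 2 libraries, no test was run. The 3 genes, lists and settings were chosen with earlier results of these data known. Pairs and anchors were named by rule: the genes of the region, the selected anchor with its partners of at least 10 summed PETs, the 10 pairs with the most PETs, anchors past 1.5-fold with at least 20 PETs, and the 5 anchors most like the selected one by Euclidean distance over 2 log2 ratios. Other anchors, including those upstream, past NFE2L1 and under 10 PETs, were picked with their values in view. The ratio script was tested on simulated counts. Expected PETs came from 25 distance bins up to 2 Mb, with PETs per possible pair of chromosome 17 anchors. All 16 genes looked up were found in GRCh38.p14. Its coordinates were not converted to hg19. Python 3.11.15, pandas 2.3.3 and scipy 1.17.1 were used.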

Additional observations from a re-analysis of the deposited data

How the results depend on the processing

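Of 49 alternatives over 16 results, 30 stayed inside the counting interval of the value or within 1.5 times the count, 19 moved beyond it and 0 reversed. The alternatives without the selected anchor and with expected counts weighted by interchromosomal PETs were chosen after seeing the data. The ratios of the region and of the selected anchor stayed within their intervals under every scaling and choice of pairs tried. Counts past 1.5-fold moved with the minimum and the fold. With a minimum of 10 PETs, 9 anchors were higher and 3 lower in intrachromosomal PETs. At a minimum of 50, 2 were higher in intrachromosomal and 4 in interchromosomal PETs. At 2-fold, 0 anchors were higher in intrachromosomal and 1 in interchromosomal PETs. For pairs, a minimum of 5 gave 15 higher and 8 lower, a minimum of 20 gave 6 higher and 1 lower, and 2-fold gave 5 higher and 0 lower. At least 5 PETs left 27 calls in shBORIS and 22 in shLUC. No shares over all anchors or pairs are given at these settings, so the counts show only how the region's own numbers moved. Expected counts from all chromosomes put contacts among the central anchors at 11.9 times in shBORIS and 9.76 in shLUC, and weighted ones at 1.19 in shBORIS and 1.01 in shLUC. Measured between edges, 44.2% of the region's PETs in shBORIS and 41.6% in shLUC spanned under 20 kb, against 39.0% in shBORIS and 35.5% in shLUC between midpoints. No paired analysis was possible because each group has 1 table, taken as the pool of its 2 libraries. Neither a replicate block nor a left-out replicate was run. Depth limits the single pairs: of 391 intrachromosomal pairs, 287 had 1 PET over both tables.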
